A study of Rattus norvegicus with 3 samples.

Results

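The 8 genes described here encode secreted signals of the transforming growth factor β (TGF-β) superfamily and proteins that hold such signals in check: the inhibin α subunit (Inha), the activin and inhibin βA subunit (Inhba), follistatin (Fst) and follistatin-like 3 (Fstl3), the ligands Tgfb1, Tgfb2 and Tgfb3, and Gdf15. All probe sets whose platform annotation gives 1 gene symbol among these names were taken, which were 10 of the 12783 probe sets with 1 symbol, for 8 of 10411 genes. The samples were ventricular heart muscle cells of newborn rats, kept in culture for 48 h, and total RNA was measured on 1 Affymetrix array per condition. The first culture had no stimulus. The second contained 20 µM phenylephrine, an agonist of α1-adrenergic receptors that makes cultured cardiac myocytes grow, and the third 1 µM PAMH, a small molecule for which the submitters' keywords include hypertrophy, 5-hydroxytryptamine and pyridine. Doses of the compounds differed, and the values of each are set beside the other's without a match in dose. With 1 array per condition there is no spread between cultures, no standard error and no test, and precision is limited by having 3 arrays. The labels give no strain, sex or exact age of the animals, and do not say how many animals a culture came from.

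Ligands of this superfamily are made as larger precursors that pair up, are cut by proteases and are secreted. Pairs of βA subunits form activin A, while an α subunit joined to a βA subunit forms inhibin A, which opposes activin at its receptors. Follistatin and follistatin-like 3 bind activin outside the cell and keep it from its receptors. Activins and TGF-βs signal through paired receptor kinases to SMAD2 and SMAD3, which enter the nucleus with SMAD4. In heart, TGF-β ligands are best known for their action on fibroblasts and matrix, and Gdf15 as a cytokine released under stress and load.

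On the phenylephrine array, 5 of the 8 genes (Inha, Gdf15, Tgfb2, Inhba and Fstl3) were at least 2-fold higher than on the unstimulated array, by 2.39-fold to 8.30-fold. Of all measured genes, 2.62% were that much higher. On the PAMH array the same 5 genes were at least 1.5-fold higher, where 9.31% of all measured genes were. Of these, 3 (Tgfb2, Gdf15 and Fstl3) were at least 2-fold higher, where 2.05% of all were, and that count of 3 fell to 1 under several other processing settings. Tgfb2 was as high with PAMH as with phenylephrine, whereas Inha was 5.04-fold lower on the PAMH array than on the phenylephrine array. Fst and Tgfb3 were within 1.5-fold of the unstimulated array with both compounds, and the Tgfb1 probe set was not well above background on any array. The unstimulated array serves both comparisons, which therefore share whatever was particular to it.

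Signals are intensities on a linear scale, multiplied by 1 factor per array so that the arrays had equal medians. A floor was set at percentile 40 of all scaled values, an intensity of 76.1, and a ratio needed 2 values that were not below it. The 27 control probe sets for the bacterial genes dap, lys, phe, thr and trpn, which are not rat genes, lay between 0.522 and 58.2 over the 3 arrays, all below the floor. The 11 cardiac myocyte markers on the platform, such as the myosin heavy chain Myh6 and the troponin Tnnt2, were all above the floor on every array. Signals of different probe sets cannot be ranked against each other, so each gene is compared only with itself across arrays.

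Of the 8 genes, 7 had upstream sequence in the RefSeq promoter table of build GRCr8, and Fst did not. The 250 bases before the annotated start are shown for 4 genes that lay near the floor without stimulus and were highest with phenylephrine. Each is read 5′ to 3′ along the gene's own strand. Capitals mark matches, on either strand, to the cyclic AMP response element TGACGTCA, to the same element with any base at position 4 (TGANGTCA, which includes it), to its core CGTCA (which overlaps both), to the AP-1 site TGANTCA and to the TATA box TATAAA.
Inha, chr9:84442859-84443108, plus strand: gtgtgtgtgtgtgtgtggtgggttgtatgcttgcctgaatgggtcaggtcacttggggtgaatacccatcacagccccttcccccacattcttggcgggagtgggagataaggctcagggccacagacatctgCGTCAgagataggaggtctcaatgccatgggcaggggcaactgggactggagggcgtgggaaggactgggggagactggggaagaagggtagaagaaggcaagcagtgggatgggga
Inhba, chr17:53804509-53804758, minus strand: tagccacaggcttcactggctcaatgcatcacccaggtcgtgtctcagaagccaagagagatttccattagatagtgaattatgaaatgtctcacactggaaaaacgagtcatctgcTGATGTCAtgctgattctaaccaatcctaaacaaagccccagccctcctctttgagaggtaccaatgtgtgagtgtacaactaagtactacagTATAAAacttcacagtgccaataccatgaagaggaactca
Fstl3, chr7:10579845-10580094, minus strand: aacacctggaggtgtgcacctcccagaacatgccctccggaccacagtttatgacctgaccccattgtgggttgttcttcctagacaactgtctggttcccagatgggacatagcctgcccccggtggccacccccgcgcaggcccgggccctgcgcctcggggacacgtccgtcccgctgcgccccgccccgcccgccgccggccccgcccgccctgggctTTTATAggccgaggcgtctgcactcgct
Gdf15, chr16:18839015-18839264, plus strand: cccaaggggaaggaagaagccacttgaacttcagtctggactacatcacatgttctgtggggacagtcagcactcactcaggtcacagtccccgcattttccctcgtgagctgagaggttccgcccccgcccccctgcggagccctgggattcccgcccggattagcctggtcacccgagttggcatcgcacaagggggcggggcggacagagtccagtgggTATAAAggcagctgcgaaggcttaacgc

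The Inha window held the core CGTCA with its first base 117 bases before the start, a sequence present in 18.2% of 33469 upstream windows of the same length. The Inhba window held the form TGANGTCA, beginning 133 bases before the start, which 8.88% of windows share, and a TATA box 40 bases before it. TATA boxes, found in 12.9% of windows, also lay 28 bases before the start in Gdf15 and, on the opposite strand, in Fstl3. The SMAD-binding letters CAGACA, present in 17.2% of windows, were found in Inha (127 bases before the start) and, on the opposite strand, in Fstl3 (161 bases). No match to TGANTCA (6.34% of windows) or to the full TGACGTCA (1.59%) was found in the windows of the 7 genes. A second Gdf15 window and those of Tgfb2 and Tgfb3 held none of these letters, and that of Tgfb1 held CGTCA. A match is a description of the letters, and the arrays do not measure binding at any of them.

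**Figure D1:**
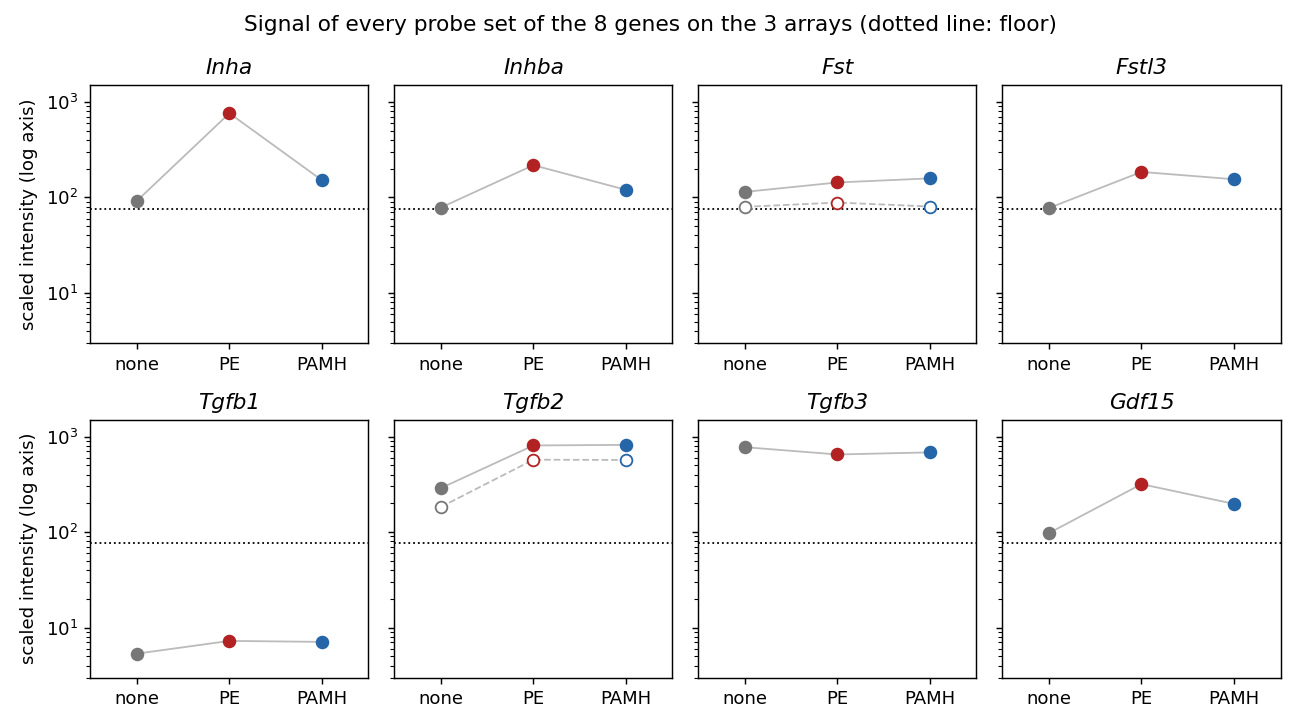
Scaled signal intensity (log axis) of all 10 probe sets of the 8 genes on the array without stimulus (none), with phenylephrine (PE) and with PAMH. Filled points are the brightest probe set of a gene, open points a further one, lines join the values of a probe set and the dotted line is the floor of 76.1. Inha stands at 759 with phenylephrine and 150.5 with PAMH, Tgfb2 is level between the compounds, and Tgfb1 lies below the floor on all arrays.

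Inha, the α subunit of inhibin, had a scaled intensity of 91.4 without stimulus, 759 with phenylephrine and 150.5 with PAMH. The phenylephrine array stood far above the others, and the unstimulated signal was only 1.20 times the floor. The log2 ratio was 3.05 with phenylephrine, rank 2 from the highest among 6571 genes measured on both arrays. None (0) of 2252 other genes with a signal within 1.5-fold of its own was as far above the unstimulated array. With PAMH the log2 ratio was 0.72 (1.65-fold, rank 372 of 6549), and 3.51% of 1997 genes of like signal were at least as high. Both sets hold only genes with 2 values at or above the floor. The dimmer genes in each set therefore could not have had a ratio as high as that of Inha. Between the compounds the log2 ratio was -2.33, rank 6592 of 6593 from the highest.

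Inhba, the βA subunit shared by activin A and inhibin A, had intensities of 78.0, 217 and 120, in the order unstimulated, phenylephrine and PAMH. The unstimulated signal lay at the floor (1.03 times), so its folds depend on a value close to background. It was 2.78-fold higher with phenylephrine (log2 ratio 1.48, rank 55) and 1.53-fold higher with PAMH (0.62, rank 549). On the PAMH array it was 1.81-fold lower than on the phenylephrine array, and 0.960% of 2292 genes of like signal were as low or lower. Both subunit genes thus had the order unstimulated, PAMH, phenylephrine, with the wider gap between the compounds in Inha.

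Of the activin-binding proteins, Fstl3 had intensities of 77.1 without stimulus, 184 with phenylephrine and 155 with PAMH. Both treated arrays lay above the unstimulated one, whose signal was again at the floor (1.01 times). Fstl3 was 2.39-fold higher with phenylephrine (log2 ratio 1.26, rank 88) and 2.01-fold with PAMH (rank 133), and the compounds differed by a log2 ratio of -0.25. Fst, by its brightest probe set, had intensities of 114, 143 and 158 in the same order. Its log2 ratios were 0.33 with phenylephrine and 0.47 with PAMH, and 18.8% and 11.9% of genes of like signal were at least as high. A second Fst probe set gave 79.5, 88.2 and 80.2, between 1.04 and 1.16 times the floor, with log2 ratios of 0.15 and 0.01. Neither probe set put Fst 1.5-fold above the unstimulated array.

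Tgfb2, a ligand expressed in the developing heart, was measured by 2 probe sets that gave like ratios. The brighter had intensities of 288 without stimulus, 806 with phenylephrine and 818 with PAMH. The other had 183, 572 and 568. All unstimulated values were well clear of the floor, at 3.78 and 2.40 times it. The log2 ratios were 1.49 and 1.65 with phenylephrine and 1.51 and 1.64 with PAMH, so the brighter probe set was 2.80-fold and 2.84-fold higher. Its rank was 53 with phenylephrine and 33 with PAMH, which was the highest of the 7 measured genes with PAMH. Between the compounds the log2 ratios were 0.02 and -0.01. The sign of the first turned under other scalings, down to -0.02, so no direction was settled between the compounds.

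Tgfb3, the related ligand, had intensities of 774, 649 and 683, in the order unstimulated, phenylephrine and PAMH. It was the only measured gene of the 7 with its highest value on the unstimulated array. Its log2 ratios of -0.25 and -0.18 were small, and 12.8% and 13.5% of genes of like signal were as low or lower. Tgfb1, the most widely studied ligand of the 3, was represented by 1 probe set with intensities of 5.35, 7.27 and 7.10. These lay within the range of the bacterial control probe sets, so no ratio is given, and the values do not show whether the transcript was present.

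Gdf15, a distant member of the superfamily that signals through the receptor Gfral in the brainstem, had intensities of 97.3 without stimulus, 318 with phenylephrine and 197 with PAMH. The arrays were again in the order unstimulated, PAMH, phenylephrine, from 1.28 to 4.17 times the floor. It was 3.27-fold higher with phenylephrine (log2 ratio 1.71, rank 29) and 2.03-fold with PAMH (1.02, rank 125). On the PAMH array it was 1.61-fold lower than on the phenylephrine array, and 1.91% of 2202 genes of like signal were as low or lower.

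Counted together, phenylephrine gave 5 of the 7 measured genes a level at least 2-fold higher and 0 a lower one, where 2.62% of all 6571 measured genes were that much higher and 0.761% that much lower. With PAMH 3 of 7 were at least 2-fold higher, where 2.05% of 6549 genes were, and none 2-fold lower, where 0.794% were, and 5 of 7 at least 1.5-fold higher, where 9.31% were. On the PAMH array 1 of 7, Inha, was at least 2-fold lower than with phenylephrine, where 0.364% of 6593 genes were, and 3 of 7 (Inha, Inhba and Gdf15) at least 1.5-fold lower, where 2.67% were. None was higher with PAMH than with phenylephrine at either fold, where 0.197% of genes were 2-fold higher and 1.93% 1.5-fold. Over the 7 genes the median was 1.48 with phenylephrine and 0.72 with PAMH on the log2 scale, beside 0.07 and 0.10 over all measured genes. The 8 genes were picked with earlier results of these arrays known, so their counts are a description. These shares depend on the scaling. On the deposited intensities, whose median over all probe sets differed from the unstimulated array by log2 ratios of -0.13 and -0.15, 132 genes were 2-fold higher and 92 lower with phenylephrine, against 172 and 50 here. With PAMH they were 75 and 92, against 134 and 52 here. After quantile normalization they were 139 and 71 with phenylephrine and 86 and 74 with PAMH.

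In place of replicates, the log2 ratios of different probe sets for a gene can be set against each other, a technical spread that leaves out variation between cultures. For signals from the floor to 3 times the floor its SD was 0.32 over 216 genes with phenylephrine and 0.33 over 208 genes with PAMH. For brighter signals it was 0.22 over 392 genes and 0.24 over 403. The log2 ratios of Inha, Inhba, Fstl3, Tgfb2 and Gdf15 with phenylephrine exceeded 3 times this SD, those of Fst and Tgfb3 did not. With PAMH, Tgfb2 and, narrowly, Fstl3 and Gdf15 exceeded 3 times it, and Inha, Inhba, Fst and Tgfb3 did not. Under other settings Fstl3 and Gdf15 with PAMH had values as low as 0.69 and 0.75. The SD leaves out probe sets with a value below the floor, so it does not cover the full spread near the floor. These comparisons give the size of the ratios beside a technical spread and are no test of a difference between treatments.

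**Figure D2:**
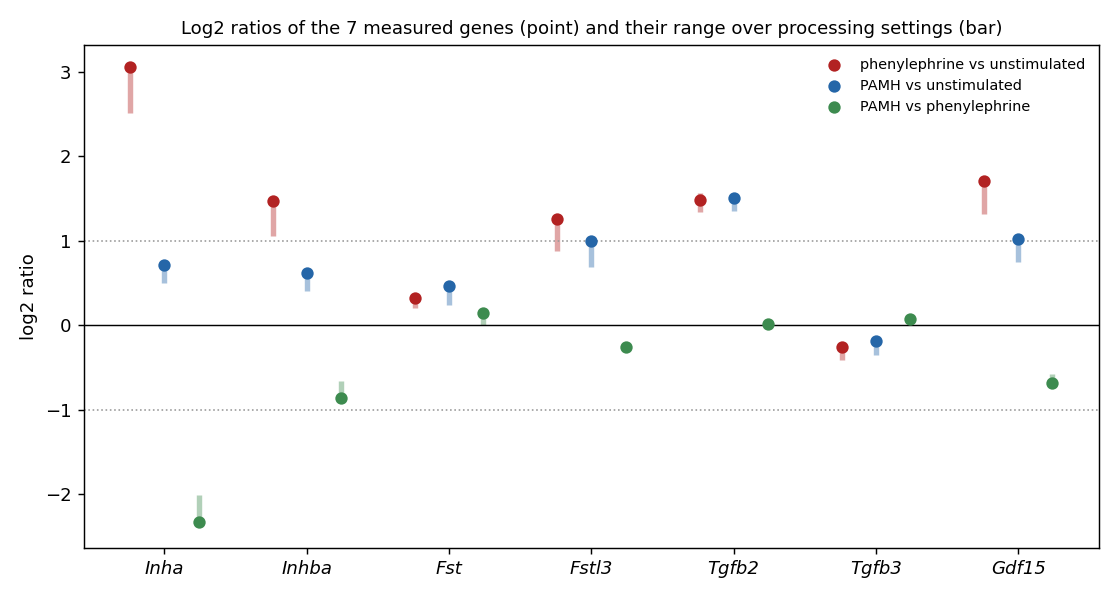
Log2 ratios (vertical axis) of the 7 measured genes for phenylephrine against unstimulated, PAMH against unstimulated and PAMH against phenylephrine. Points are the values given here, bars the range over these and the other processing settings that gave a value, and dotted lines mark 2-fold. Inha has the widest gap between the compounds, with a log2 ratio of -2.33, and the bars of Fstl3 and Gdf15 with PAMH cross the 2-fold line.

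The settings changed the size of several ratios. With an offset of 50 added before the logarithm, Fstl3 had a log2 ratio of 0.88 with phenylephrine, below 2-fold. With PAMH, Fstl3 and Gdf15 were each below 2-fold under 5 of the 9 settings that gave a value, with lowest values of 0.69 and 0.75. Inha and Inhba with PAMH had lowest values of 0.50 and 0.41, below 1.5-fold. With the floor at percentile 50, an intensity of 111, the unstimulated signals of 4 genes lay below it. Inha was then at least 6.86-fold higher with phenylephrine, Gdf15 at least 2.87-fold, Inhba at least 1.96-fold and Fstl3 at least 1.67-fold. With PAMH these bounds were 1.78-fold for Gdf15, 1.40-fold for Fstl3, 1.36-fold for Inha and 1.08-fold for Inhba.

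Other genes of the pathway were described by lists, with a count at 1.5-fold. Genes named below 1.5-fold were picked after their values were seen. A gene below the floor on either array of a comparison had no ratio and is not in its counts. With PAMH against phenylephrine, 1.93% of all measured genes were 1.5-fold higher and 2.67% lower. Of 16 receptor and co-receptor genes, 12 were on the platform. Tgfbr2, Acvr1b, Bmpr1b and Gfral had no probe set with 1 symbol and were not assayed. Amhr2 (71.4, 84.3 and 21.3) was above the floor with phenylephrine alone and had no ratio. On the phenylephrine and unstimulated arrays 7 receptor genes were measured, and 1 was higher and none lower, where 8.9% of all measured genes were higher and 4.54% lower. This was Acvr2a, an activin type II receptor, with intensities of 123, 192 and 125 and a log2 ratio of 0.64 that was below 1.5-fold on the deposited intensities and with an offset of 50. With PAMH 1 of 6 was higher, the bone morphogenetic protein receptor Bmpr1a (452, 528 and 740, log2 ratio 0.71), again below 1.5-fold on the deposited intensities and after cyclic loess. Among all measured genes, 9.31% were higher with PAMH and 4.17% lower. Tgfbr1, the type I receptor for TGF-β, had 257, 179 and 190, with log2 ratios of -0.52 and -0.43. On the deposited intensities these were -0.65 and -0.59, so that 0 receptor genes were higher and 1, Tgfbr1, lower with each compound. Acvr2a was the 1 receptor gene of 6 that was 1.5-fold lower with PAMH than with phenylephrine, with a log2 ratio of -0.62 that was below 1.5-fold with the offset. The median over the measured receptor genes was 0.25 with phenylephrine and 0.02 with PAMH, on the log2 scale.

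Of 28 other ligand genes of the superfamily, 17 were on the platform and most of these lay below the floor on at least 1 array. Bmp3 (123, 57.3 and 73.3) was above it without stimulus alone and Gdf9 (49.6, 81.4 and 71.5) with phenylephrine alone. Neither had a ratio. Among 6 measured with phenylephrine and 5 with PAMH, Bmp7 was the 1 gene at least 1.5-fold higher with each compound, where 8.9% and 9.31% of all measured genes were. Bmp7, a bone morphogenetic protein, had intensities of 147, 312 and 277, and was 2.13-fold higher with phenylephrine and 1.89-fold with PAMH. Bmp6, another bone morphogenetic protein, had 209, 179 and 140, with log2 ratios of -0.22 and -0.58, the second just under 1.5-fold. With PAMH 1 ligand gene was 1.5-fold lower after quantile normalization, after cyclic loess, on the deposited intensities and when arrays were scaled on percentile 75, and 2 were with the floor at percentile 30. Bmp4 had 116, 151 and 97.8, and was the 1 gene of 5 that was 1.5-fold lower with PAMH than with phenylephrine (log2 ratio -0.62, below 1.5-fold with the offset). The other activin and inhibin β subunit genes Inhbb, Inhbc and Inhbe were below the floor on all arrays, with at most 58.1.

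Of 14 measured genes of latency, activation and extracellular antagonists, 2 were higher and 2 lower with phenylephrine, where 8.9% and 4.54% of all measured genes were. Grem1, which encodes the bone morphogenetic protein antagonist gremlin, had 121, 255 and 172 and a log2 ratio of 1.08 with phenylephrine. The proprotein convertase gene Pcsk6 had 132, 211 and 162 and a ratio of 0.67, below 1.5-fold on the deposited intensities and with the offset. The matrix genes Emilin1 (log2 ratio -0.86) and Dcn (-0.70, below 1.5-fold with the offset) were lower with phenylephrine. With PAMH none of 13 was higher, where 9.31% of genes were, and 2 were lower, where 4.17% were. These were Fbn1 (-0.93) and Dcn (-0.89), and a second Fbn1 probe set had -0.41. Emilin1 had 171, 94.4 and 43.8, the last below the floor, so it had no ratio with PAMH. Ltbp1, which tethers latent TGF-β to the matrix, was the 1 measured gene at least 1.5-fold lower with PAMH than with phenylephrine. It had 156, 229 and 133 and a log2 ratio of -0.78. Ltbp2 (71.5, 142 and 45.6), Pcsk5 (65.5, 109 and 40.9) and Ltbp4 (68.0, 79.2 and 47.8) were above the floor with phenylephrine alone, and had no ratio. Furin, a protease that cuts TGF-β precursors, had 260, 246 and 296.

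None of 13 measured genes for SMADs and their regulators was 1.5-fold apart from the unstimulated array with phenylephrine, and their median log2 ratio was 0.07. Of all measured genes, 8.9% were higher and 4.54% lower. With PAMH 1 was higher, where 9.31% of all genes were, and none lower, where 4.17% were. This was the phosphatase gene Ppm1a (338, 462 and 509), by a log2 ratio of 0.59 that was below 1.5-fold under 5 of 9 alternatives. Smad2 (324, 382 and 339), Smad3 (161, 145 and 124) and Smad4 (384, 304 and 355) had log2 ratios between -0.37 and 0.24 with either compound. Skil, a repressor that SMAD signalling itself induces, had 730, 1082 and 768. Its log2 ratios were 0.57 with phenylephrine and 0.07 with PAMH. Smad7, the inhibitory SMAD gene, lay below the floor on all 3 arrays.

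Genes that SMAD2 and SMAD3 are known to induce went different ways. Of 18 measured with phenylephrine, 7 reached 1.5-fold above the unstimulated array and none lay as far below it, where 8.9% and 4.54% of all genes did. The median log2 ratio of the 18 was 0.46, beside 0.07 over all genes. The smooth muscle actin gene Acta2 (753, 1836 and 2154) had a ratio of 1.29, the lysyl oxidase gene Lox (196, 471 and 234) 1.27, the matrix phosphoprotein gene Spp1 (182, 413 and 354) 1.19 and the protease inhibitor gene Timp1 (401, 853 and 507) 1.09. A second Lox probe set had 0.95. Cdkn2b (16.9, 95.1 and 16.6) was above the floor with phenylephrine alone and had no ratio. With PAMH 4 of 18 were higher and 3 lower, where 9.31% and 4.17% of all genes were, and the median was 0.13. The 4 were Acta2 (log2 ratio 1.52), Spp1 (0.96), Bhlhe40 (0.90) and Ccn2, which encodes connective tissue growth factor (0.81, below 1.5-fold after quantile normalization and cyclic loess). The 3 lower ones were Postn, which encodes periostin (-1.76), Col3a1 (-1.06) and Col1a1 (-0.64, with a further probe set at -0.04). Against phenylephrine, Postn (-1.31), Lox (-1.01), Timp1 (-0.75) and Col3a1 (-0.60, below 1.5-fold with the offset) were the 4 genes lower with PAMH and none was higher. With the deposited intensities, quantile normalization or cyclic loess, 1 or 2 of the 18 genes were 1.5-fold lower with phenylephrine.

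Cell type markers differed between the same arrays. The summed scaled signal of 11 cardiac myocyte markers, all above the floor on each array, was 67181 without stimulus, 77855 with phenylephrine and 91803 with PAMH. A level higher by 1.5-fold or more was measured for 3 of them with phenylephrine (Actn2, Myl3 and Nkx2-5) and 4 with PAMH (also Myl2). Of all measured genes, 8.9% and 9.31% were that much higher. The 3 with phenylephrine were below 1.5-fold on the deposited intensities, after quantile normalization and after cyclic loess. With PAMH, Nkx2-5 alone of the 4 stayed above 1.5-fold after both normalizations. There the ratios of Myh6, Atp2a2, Pln, Tnni3 and Tnnt2 changed sign, that of Myh6 from 0.30 to as low as -0.32. The sum of 11 fibroblast markers on the platform was 8499 without stimulus, 6642 with phenylephrine and 5175 with PAMH, with 9, 7 and 7 of them at or above the floor. Of 7 measured, 1 was at least 1.5-fold lower with phenylephrine and 5 with PAMH, where 4.54% and 4.17% of all measured genes were. Bright probe sets weigh most in such a sum, here those of Col1a1, Col1a2 and Col3a1 (1979, 2302 and 2776 without stimulus). Thy1 (80.3, 116 and 93.1) was higher with both compounds, while its second probe set had -0.53 with phenylephrine. Second probe sets of Col1a1 and Col1a2 had -0.04 and -0.12 with PAMH. The sum of 7 smooth muscle markers was 5022, 11860 and 9996, with 6 at or above the floor on each array. It included the desmin gene Des (1749, 4498 and 3802) and Cnn1 (249, 1795 and 1396). Cnn1 had the highest log2 ratios of the list, 2.85 with phenylephrine and 2.48 with PAMH. Myh11, a myosin gene, had 278, 282 and 179 and Smtn 200, 156 and 176. The sum of 5 pericyte markers was 681, 914 and 871, with 2, 3 and 3 above the floor. Among them Cspg4 had 70.8 (below the floor), 429 and 200, and Abcc9 had 421, 265 and 438. The sums do not show which cells held these transcripts. Of 6 endothelial and 8 macrophage markers, between 0 and 3 were above the floor on any array. The macrophage genes Aif1 (91.3, 103 and 135) and Cd74 (121, 80.1 and 84.6) were above it on all arrays, and Csf1r with phenylephrine (79.3) and PAMH (110). The endothelial gene Emcn was above it without stimulus (113) and with phenylephrine (126), and Tie1 with phenylephrine alone (79.9). Pecam1, Vwf, Ptprc and Cd68 lay below it on all arrays. Acta2, Tagln, Col1a1, Col1a2, Col3a1 and Postn stand both in a marker list and in the SMAD target list. The part of these cells in the values of the ligand genes was not tested. In RNA from a whole culture, fewer cells of a type and less RNA per cell cannot be told apart.

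Of 8 measured genes of the cyclic AMP response, listed because Inha is a classical target of this pathway in the gonads, 2 were higher with phenylephrine and none lower, where 8.9% and 4.54% of genes were. The kinase gene Sik1 (116, 276 and 210) had a log2 ratio of 1.25, and the phosphatase gene Dusp1 had 0.73, below 1.5-fold after quantile normalization and cyclic loess, with a second probe set at 0.45. With PAMH 1 of 8, Sik1 (0.86), was higher and 1, the phosphodiesterase gene Pde4b (299, 425 and 182), lower (-0.72), where 9.31% and 4.17% of genes were. Pde4b was the 1 gene of 9 lower with PAMH than with phenylephrine, at -1.22. Nr4a3 (56.8, 150 and 112) was below the floor without stimulus alone, and Fos (51.3, 83.6 and 34.8) above it with phenylephrine alone. Neither had a ratio against the unstimulated array. Of 13 stress response genes, listed because several are induced together with Gdf15 under stress, 3 were higher and 1 lower with phenylephrine, where 8.9% and 4.54% of genes were. On the deposited intensities 2 were higher and 3 lower, and after quantile normalization 1 and 2. With median scaling the genes were Vldlr (log2 ratio 1.18), Ccng1 (0.82, below 1.5-fold after quantile normalization), Gadd45a (0.63, below 1.5-fold under 4 of 9 alternatives) and, lower, Trib3 (-0.63, below 1.5-fold with the offset). With PAMH Ccng1 (0.93) and Gadd45a (0.75, below 1.5-fold after quantile normalization and cyclic loess) were higher, while Trib3 (-1.09), Ddit4 (-0.95) and Atf5 (-0.79) were lower, where 9.31% of all genes were higher and 4.17% lower. Vldlr, at -0.59, was the 1 gene lower with PAMH than with phenylephrine, and was below 1.5-fold there with the offset and as a mean over its probe sets. Further Vldlr probe sets had -0.40 and -0.05 there. With PAMH against the unstimulated array Vldlr had 0.58, just under 1.5-fold, and 0.40 and 1.08 by the further probe sets. Atf3 and Ddit3, transcription factors of the stress response, lay within 1.5-fold of the unstimulated array with both compounds.

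**Figure D3:**
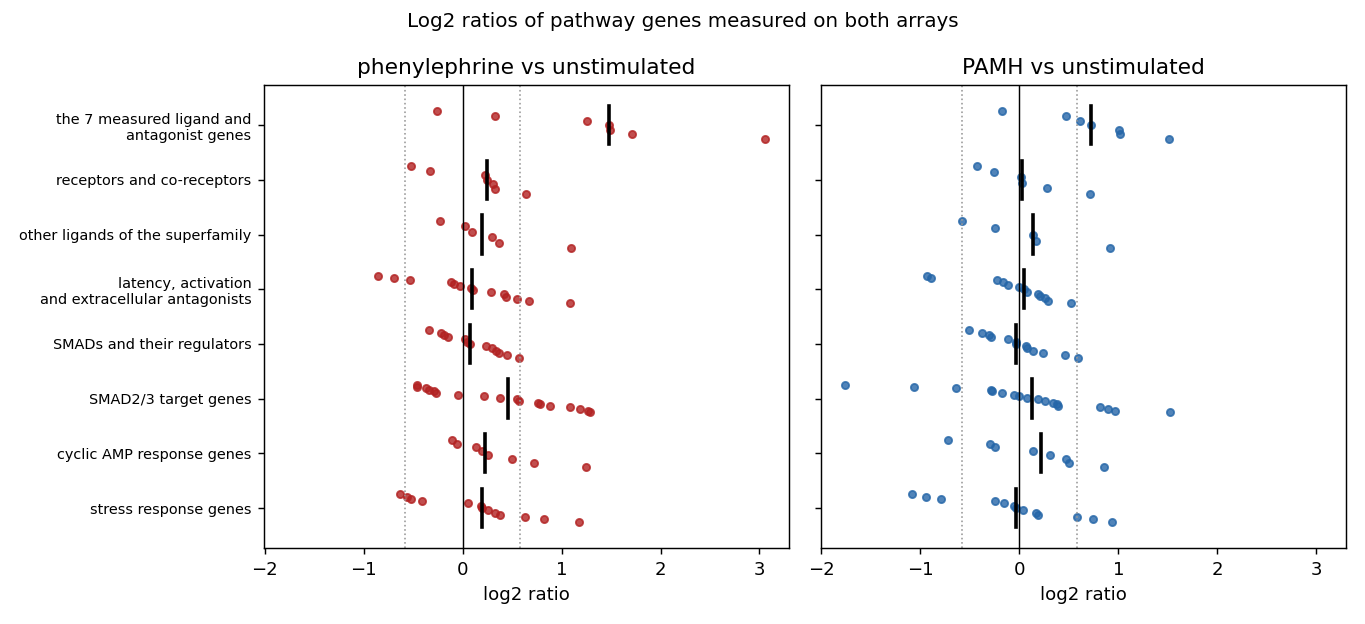
Log2 ratios (horizontal axis) of the 7 measured ligand and antagonist genes and of the genes of each pathway list that were measured on both arrays, for phenylephrine (left) and PAMH (right) against unstimulated. Each point is a gene, black bars are medians and dotted lines mark 1.5-fold. The SMAD2/3 target genes have a median of 0.46 with phenylephrine and 0.13 with PAMH, and Postn lies at -1.76 with PAMH.

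For each gene at least 1.5-fold apart from the unstimulated array, the genes with the most similar pair of log2 ratios were sought among 4841 or 4842 genes measured on all 3 arrays with a mean intensity above percentile 60. Likeness was the Euclidean distance between the pairs. Inha had no close partner: Ptgis, the prostacyclin synthase gene (165, 738 and 207), was nearest at a distance of 0.98, followed by Krt18 at 1.04. Inhba was nearest to Tec (0.12) and Tril (0.16), and Fstl3 to the filamin gene Flnc (0.02) and St3gal2 (0.05). Tgfb2 was nearest to Slc12a7 (0.11) and Plbd1 (0.11), and Gdf15 to Rai14 (0.10) and Bok (0.14). With 3 arrays and a shared unstimulated array, these distances describe the signals only.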

How the data were processed

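The series holds 3 arrays of cultured neonatal rat ventricular myocytes, 1 each without stimulus, with phenylephrine and with PAMH. The authors deposited linear signal intensities for 15923 probe sets, 57 of them controls. What software made them is not given in the sources used here. Detection calls were not used here. The mean trimmed by 2% at each end was 250.1 on every array.

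Symbols came from the platform annotation, updated by gene identifier where found (12748 of 12783 probe sets). The arrays were multiplied by 0.938, 1.02 and 1.04, in the order above, to equal medians over non-control probe sets, with the floor at percentile 40. The brightest probe set by mean signal stood for a gene. No coordinates of probe sets were used. Upstream sequences are RefSeq's.

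The text names all 8 genes, up to 4 genes of a list per comparison furthest from 0 at 1.5-fold, and the 2 nearest genes of each. The genes and lists were chosen with earlier results of these data known. Alternatives were the deposited intensities, scaling on percentile 75, quantile and cyclic loess normalization (limma 3.58.1, R 4.3.3), an offset of 50, floors at percentile 30 and 50 or none, and the mean over probe sets. Ratios were tested on simulated data in which the changed genes had signals well above the floor, so ratios near the floor were not covered. Python 3.11.15, numpy 2.4.6 and pandas 2.3.3 were used. The 3′ to 5′ ratio of the actin control was 1.72, 1.44 and 1.54.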

Additional observations from a re-analysis of the deposited data

How the results depend on the processing

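No paired analysis was possible because each group has 1 array, and no array could be left out. A log2 ratio was taken to have moved where it differed by more than the SD between probe sets of a gene, and a count where it differed by over 1.5 times. No ratio of the 8 genes of at least 1.5-fold changed sign under any alternative. With an offset of 50, the log2 ratios with phenylephrine were 2.52 for Inha, 1.06 for Inhba, 0.88 for Fstl3 and 1.32 for Gdf15, that of Fstl3 with PAMH was 0.69 and that of Inha between the compounds -2.01. With the floor at percentile 50, 1 of the 8 genes, Tgfb2, was counted as higher with each compound at either threshold, because unstimulated signals below the floor give only a bound, and Inha, Inhba, Fstl3 and Gdf15 then had no ratio against the unstimulated array. With PAMH, 1 gene was at least 2-fold higher with scaling on percentile 75, on the deposited intensities, after quantile normalization, after cyclic loess and with the offset, against 3 in the text. At 1.5-fold, 3 were higher on the deposited intensities and with the offset, against 5.

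Over all genes, 2-fold counts with phenylephrine (172 higher, 50 lower) were 92 lower on the deposited intensities, 23 lower with the offset, and 675 higher and 477 lower without a floor. The 1.5-fold counts (585 and 298) were 519 lower on the deposited intensities, 177 lower with the offset, and 1475 higher and 1095 lower without a floor. With PAMH, 2-fold counts (134 and 52) were 75 higher and 92 lower on the deposited intensities, 86 higher after quantile normalization, 85 higher after cyclic loess, 30 lower with the offset, and 634 higher and 602 lower without a floor. The 1.5-fold counts (610 and 273) were 350 higher and 515 lower on the deposited intensities, 158 lower with the offset, and 1488 higher and 1216 lower without a floor. Between the compounds, 2-fold counts (13 higher, 24 lower) were 2 and 10 with the offset, 20 and 45 with the floor at percentile 30, 7 higher with it at percentile 50, and 443 and 570 without a floor. The 1.5-fold counts (127 and 176) were 63 and 85 with the offset, 192 higher with the floor at percentile 30, and 919 and 1107 without a floor. Of 378 recomputed counts of pathway lists, 303 stayed within 1.5 times. Signal over background limits Inha, Inhba, Fstl3 and Gdf15 on the unstimulated array and Tgfb1 on all arrays.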
